A study of Mus musculus with 6 samples.

Results

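The E2F transcription factors and the retinoblastoma pocket proteins that bind them were followed in 3T3 cells (a mouse embryonic fibroblast line) after a GapmeR against the long noncoding RNA Ntep. The members were all non-control probes that the array names E2f1 to E2f8, Rb1 or Rbl1, which gave 14 of 55681 probes, for 10 of the 22942 genes the array's probes could be matched to. GapmeRs are antisense oligonucleotides that direct RNase H to cut the RNA they pair with. Cultures were kept for 48 h with GapmeR Ntep or with GapmeR control, at a labelled dose of 50 nM, which the supplementary lists write as 2 x 50 nM, and RNA of each culture was hybridised to its own Agilent array in 1 color, with 3 arrays per label from 3 independent experiments. Each label rests on 1 oligonucleotide in 1 cell line.

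In cells that leave G1, cyclin-dependent kinases phosphorylate the pocket proteins, which release the E2F factors and let them switch on genes for DNA replication. E2f1, E2f2 and E2f3 are the activators, E2f4, E2f5 and E2f6 act mainly as repressors, and the atypical E2f7 and E2f8 repress without a DP partner and are themselves E2F targets that dampen the response. Rb1 chiefly holds the activators, while Rbl1 (p107) and Rbl2 (p130) hold the repressors.

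Ntep itself, named A630089N07Rik in the files, read 472, 91.4 and 226 in experiments 1, 2 and 3 where the label was GapmeR Ntep, and 271, 272 and 361 where it was GapmeR control. The labels overlapped, and experiment 1 went against its label. The log2 difference was -0.48 (SE 0.58, limma adjusted p = 0.632; exact two-sided permutation p = 0.7, where 3 against 3 arrays cannot fall below 0.1). This reading rests on 1 probe with 1 spot per array. Arrays are therefore called by their labels, and every direction below is that of the label. By qPCR, the paper reports efficient silencing of Ntep by this GapmeR in the same cell line and at the same time. Whether the RNA on these arrays was also measured by qPCR is not stated there. All 14 member probes were well above background on all 6 arrays and none was saturated. In bulk RNA, fewer cells of a type and less RNA per cell cannot be told apart.

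Because E2F genes are known targets of E2F factors, the promoters of the member with the lowest p (E2f8), of E2f3 and of the partner Tfdp2 are shown, from 250 bases before to 30 bases after the RefSeq start in GRCm38.p6, 5′ to 3′ on the gene's strand. Capitals mark an E2F word (TTTCGCG, its variant TTTGGCG or its variant TTTCCCG) or the cell cycle element CHR (TTTGAA) on either strand. The E2F and CHR words share no overlap here. The windows lie at chr7:48881567-48881846 (minus strand), chr13:29986034-29986313 (minus strand, the first of 2 windows of the gene) and chr9:96258455-96258734 (plus strand, the first of 2).
E2f8: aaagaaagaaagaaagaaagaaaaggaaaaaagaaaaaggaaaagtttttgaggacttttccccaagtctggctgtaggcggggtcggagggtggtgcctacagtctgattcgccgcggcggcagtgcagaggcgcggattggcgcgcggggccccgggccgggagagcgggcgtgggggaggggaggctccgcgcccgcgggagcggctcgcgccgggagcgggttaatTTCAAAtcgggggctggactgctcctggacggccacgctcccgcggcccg
E2f3: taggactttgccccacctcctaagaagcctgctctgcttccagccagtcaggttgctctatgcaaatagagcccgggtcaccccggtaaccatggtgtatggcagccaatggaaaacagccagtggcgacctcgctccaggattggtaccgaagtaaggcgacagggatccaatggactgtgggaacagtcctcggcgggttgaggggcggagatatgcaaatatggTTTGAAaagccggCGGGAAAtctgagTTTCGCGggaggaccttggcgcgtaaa
Tfdp2: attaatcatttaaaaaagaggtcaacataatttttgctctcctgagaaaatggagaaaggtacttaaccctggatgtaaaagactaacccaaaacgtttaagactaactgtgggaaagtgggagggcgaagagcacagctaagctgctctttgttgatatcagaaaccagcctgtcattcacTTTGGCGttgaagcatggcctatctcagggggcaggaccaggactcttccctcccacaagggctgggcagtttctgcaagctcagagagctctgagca
The E2f8 window held a CHR word 20 bases before the start and no E2F word. The first E2f3 window held a CHR word 23 bases before the start and E2F words at 10 bases before and at base 4 of the transcript. The first Tfdp2 window held an E2F word 68 bases before the start, and the second held 0. Such words were also in both windows of the other partner, Tfdp1, 42 and 95 bases before their starts. The window of the E2F target Orc1 held an E2F word 26 bases before the start. An E2F word occurred in windows of 4 of the 7 member genes that have one (E2f2, E2f3, E2f7 and Rbl1), or in 4 of their 9 windows, while 5.58% of all 32851 windows of 250 bases before and 50 after a start held one. CHR occurred in 3 of the 9 member windows and in 17.9% of all windows. The E2f1 window and the second E2f2 window, which gave 1 of these CHR words, begin in protein-coding sequence of their genes. Both lie inside the gene, so the promoter before the first exon of E2f1 was not searched. A match of letters is a description and not a site.

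No member probe passed the adjusted limit of 0.05 (unpaired limma, Benjamini-Hochberg over 30985 tested probes), where 5.3% of all tested probes did (2.09% higher and 3.21% lower). With experiment as a block in limma, 2 of the 14 passed, as did 13.9% of all probes. The other counts here are of the unpaired fit. No member probe had a fold change of at least 2 with an unadjusted p under 0.01, against 8.15% of all probes. At an unadjusted p under 0.05 there was 1 member probe, for E2f8, against 25% of all probes, and it was also under 0.01, as were 11.4% of all probes. The arrays of the labels did not overlap for 4 member probes (32.1% of all probes), 3 of them higher with GapmeR Ntep (17% of all probes) and 1 lower (15.1%). Differences were above 0 for 9 member probes and below 0 for 5, where 16896 of all 30985 tested probes were above 0. The median log2 difference of the members was 0.26, where that of all tested probes was 0.06. Leaving out 1 array moved the difference by over 1.5 times for 12 of the 14 probes, all but E2f2 and the E2f8 probe on the mRNA.

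**Figure D1:**
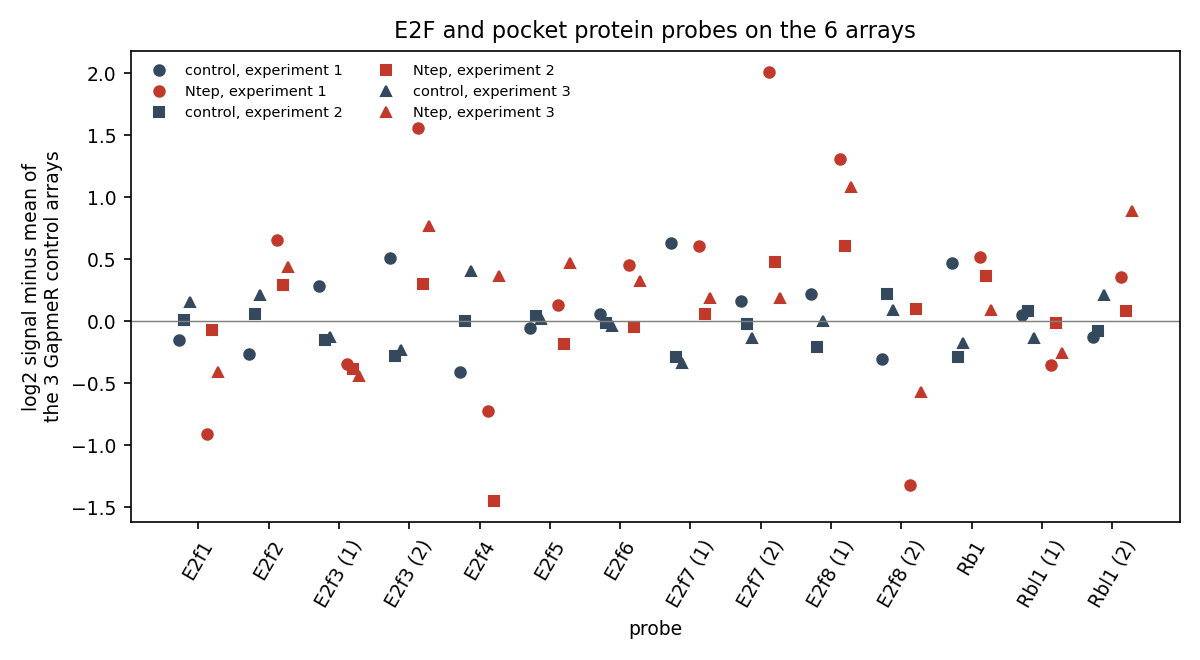
Normalised log2 signal of each member probe on each array, minus the mean of its 3 GapmeR control arrays, with red for GapmeR Ntep, blue for GapmeR control, and circles, squares and triangles for experiments 1, 2 and 3. For genes with 2 probes, (1) is the brighter. The first E2f8 probe, the second E2f7 probe and E2f2 have all red points above all blue points, and the first E2f3 probe has them below.

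E2f8, an atypical repressor, had the lowest p of the family. Its probe on the mRNA (bases 56121860 to 56121919 of chromosome 7, mm9) gave signals of 29271, 18037 and 25056 on the GapmeR Ntep arrays of experiments 1, 2 and 3, against 13764, 10232 and 11853 on the control arrays. All 3 GapmeR Ntep arrays were above all control arrays. The log2 difference was 1.00 (SE 0.24, 95% interval 0.40 to 1.59, a fold change of 1.99), with an unadjusted p of 0.00617 and a limma adjusted p of 0.0699, and the experiments gave 1.09, 0.82 and 1.08. Blocking on experiment, by the culture day that pairs the arrays, gave an adjusted p of 0.0355, and over all 18 alternatives it lay between 0.00627 and 0.239. A second probe carrying the name E2f8 comes from a cDNA clone and is written on the plus strand, while the gene lies on the minus strand, so it need not measure the E2f8 mRNA. Of 20948 probes on RefSeq mRNAs, 99.5% lie on the strand of their gene. That second probe gave 110, 293 and 185 with GapmeR Ntep against 222, 318 and 292 with control (log2 difference -0.60, SE 0.38, limma adjusted p = 0.384).

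E2f7, the other atypical member, was covered by 2 probes on the mRNA. The brighter probe read 37892, 25988 and 28329 with GapmeR Ntep and 38529, 20382 and 19781 with control. These arrays overlapped, and their spread exceeded the difference (log2 0.28, SE 0.32, limma adjusted p = 0.612). The dimmer probe read 781, 271 and 220 against 218, 191 and 177. Its GapmeR Ntep arrays were all above the control arrays, but by most in experiment 1 (1.84, against 0.50 and 0.32 in experiments 2 and 3), and the mean log2 difference of 0.89 had an SE of 0.49 (limma adjusted p = 0.312). Without GapmeR Ntep replicate 1 it was 0.33.

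Among the activators, E2f1 read 1358, 2440 and 1926 with GapmeR Ntep and 2299, 2570 and 2839 with control. Experiments 1, 2 and 3 gave log2 differences of -0.76, -0.07 and -0.56, and the labels overlapped (mean -0.46, SE 0.26, limma adjusted p = 0.316). Without GapmeR Ntep replicate 1 the mean was -0.24. E2f2 read 18871, 14625 and 16162 with GapmeR Ntep against 9924, 12454 and 13858 with control. All GapmeR Ntep arrays were above all controls, with 0.93 in experiment 1 and 0.23 and 0.22 in experiments 2 and 3 (mean 0.46, SE 0.20, limma adjusted p = 0.229).

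E2f3 gave opposite signs at its 2 probes, which lie 6889 bases apart on chromosome 13. The brighter probe (bases 29998480 to 29998539, mm9) read 24437, 23840 and 22934 with GapmeR Ntep against 37879, 27993 and 28496 with control. Its GapmeR Ntep arrays were all below the controls (log2 difference -0.39, SE 0.19, limma adjusted p = 0.254). The dimmer probe, of 60 bases placed over a span of 3387 bases (30005369 to 30008755), therefore crosses an intron, and it has the sequence below in lower case.
E2f3 probe: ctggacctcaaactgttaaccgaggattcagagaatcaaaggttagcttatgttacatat
This probe read 1666, 696 and 965 with GapmeR Ntep against 807, 467 and 482 with control. The values overlapped between labels, yet within each experiment the GapmeR Ntep array was higher, by 1.05, 0.58 and 1.00 (mean 0.88, SE 0.39, limma adjusted p = 0.231). Blocking on experiment gave an adjusted p of 0.0474, within a range of 0.0203 to 0.488 over all alternatives.

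The difference between the 2 probes of a gene on the same array was also compared between labels, in 4 genes. For E2f3, brighter minus dimmer was 3.87, 5.10 and 4.57 on the log2 scale with GapmeR Ntep and 5.55, 5.91 and 5.89 with control. The labels did not overlap (difference -1.27, exact two-sided permutation p = 0.1, adjusted over 4 genes 0.267). The same contrast was 1.59 for E2f8, -0.65 for Rbl1 and -0.61 for E2f7 (exact permutation p = 0.2, 0.2 and 0.4). For E2f8 the dimmer probe is the one on the plus strand, so this need not be a contrast within the E2f8 mRNA. With 3 arrays per label the smallest p is 0.1, so none could reach 0.05.

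**Figure D2:**
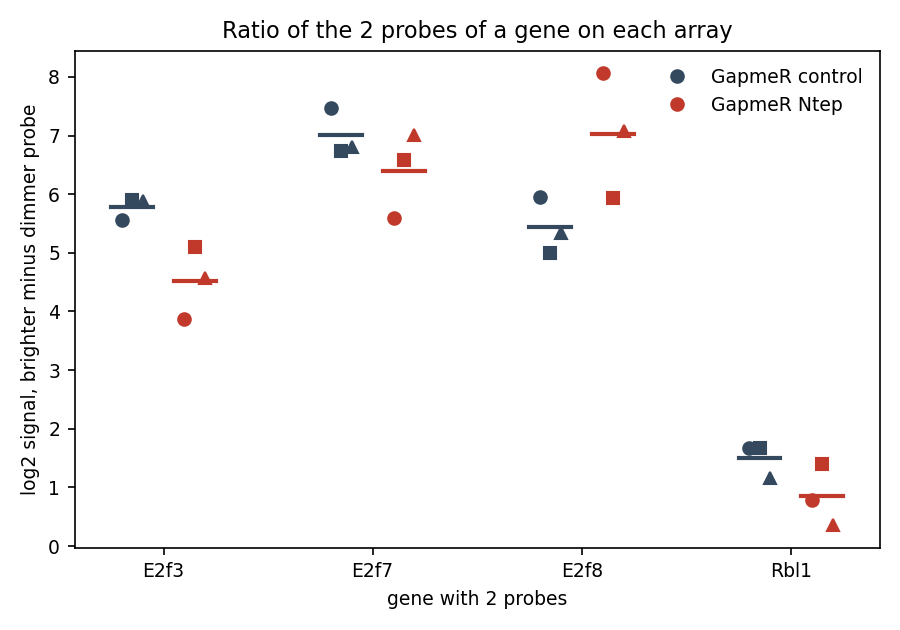
Log2 signal of the brighter minus the dimmer probe of a gene on each array, with bars for the mean of 3 arrays, blue for GapmeR control and red for GapmeR Ntep, and circles, squares and triangles for experiments 1, 2 and 3. Labels do not overlap for E2f3, at means of 5.78 and 4.51, and overlap for the other genes. The dimmer E2f8 probe is written on the strand opposite to the gene.

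Among the repressors, E2f4 read 185, 112 and 394 with GapmeR Ntep and 231, 307 and 405 with control. The spread between arrays exceeded the mean difference (log2 -0.60, SE 0.49, limma adjusted p = 0.484), which was -0.18 without GapmeR Ntep replicate 2, -1.09 without GapmeR Ntep replicate 3 and -0.40 without control replicate 3. E2f5 ranged from 1425 to 2233 with GapmeR Ntep and from 1551 to 1666 with control (log2 difference 0.14, SE 0.21, limma adjusted p = 0.711), and its sign depended on GapmeR Ntep replicate 3, without which it was -0.027. E2f6, which joins a Polycomb complex, ranged from 22153 to 31386 and from 22348 to 23825 (log2 difference 0.24, SE 0.19, limma adjusted p = 0.475). In none of these genes did the labels separate.

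Rb1 was measured by 10 spots per array, whose signals varied by 3.17% to 4.77% (coefficient of variation). Its signal was 2090, 1883 and 1559 with GapmeR Ntep against 2030, 1194 and 1294 with control. The control array of experiment 1 lay among the GapmeR Ntep arrays, and the log2 difference was 0.32 (SE 0.26, limma adjusted p = 0.484). Rbl1 had 2 probes, for different RefSeq transcripts, with opposite signs. One ranged from 4585 to 5809 with GapmeR Ntep and from 5348 to 6225 with control (log2 difference -0.21, SE 0.18, limma adjusted p = 0.487). The other ranged from 2191 to 3840 and from 1901 to 2391 (log2 difference 0.44, SE 0.26, limma adjusted p = 0.337). The labels overlapped at both.

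**Figure D3:**
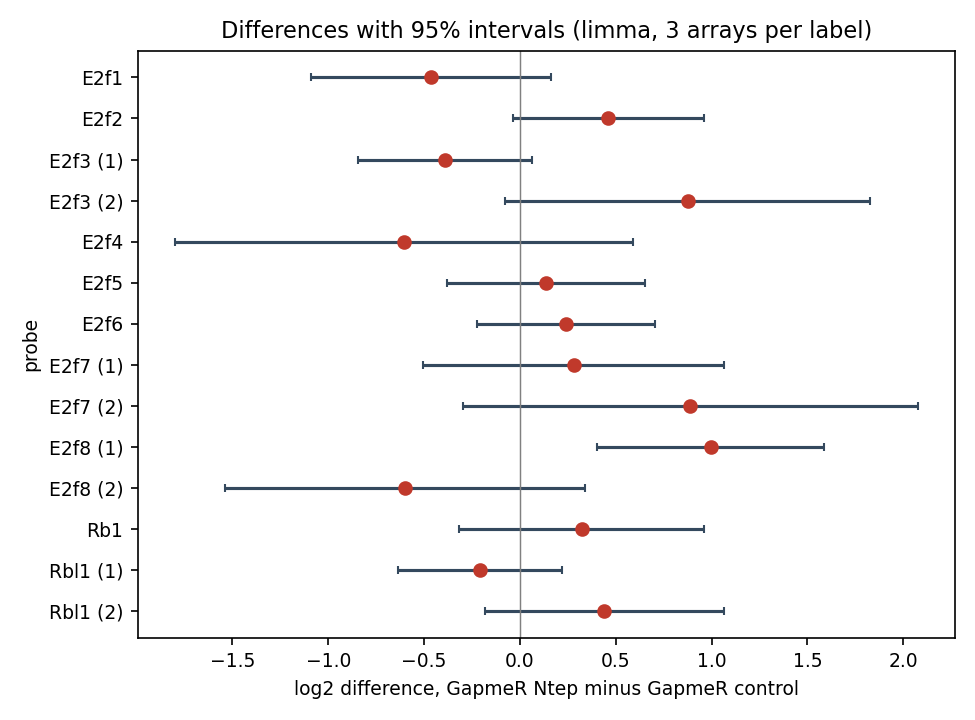
Log2 difference of GapmeR Ntep minus GapmeR control for each member probe, with its 95% interval from limma. Of the 14 intervals, 1, that of the first E2f8 probe (0.40 to 1.59), excludes 0.

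Of the genes that complete the family's complexes, Tfdp2, a DP partner through which E2f1 to E2f6 bind DNA, was lower with GapmeR Ntep. Its brighter probe read 741, 1490 and 896 with GapmeR Ntep against 3442, 2877 and 2729 with control. Every GapmeR Ntep array was below every control array, and the log2 difference was -1.59 (SE 0.30, limma adjusted p = 0.0410). A second Tfdp2 probe gave -1.85 (SE 0.46, limma adjusted p = 0.0739), again without overlap. Tfdp1, the other DP partner, was 0.24 (SE 0.17, limma adjusted p = 0.433), and Rbl2 was -0.071 (SE 0.24, limma adjusted p = 0.875). The Tfdp2 call was lost on leaving out any array except GapmeR Ntep replicate 2 (adjusted p 0.0798 without GapmeR Ntep replicate 1, 0.136 without GapmeR Ntep replicate 3, and 0.0839, 0.159 and 0.142 without control replicates 1, 2 and 3).

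The pathway around the family was described by lists with 1 probe per gene, where 2.34% of 15235 genes were higher and 3.68% lower past the adjusted limit and the median log2 difference was 0.00. Of 36 textbook E2F target genes, all tested, 1 was higher and 0 were lower. Their median was 0.16, with 22 differences above 0, as were 7642 of the 15235 genes. At an unadjusted limma p under 0.05 there were 6 higher and 4 lower, where 13% and 15.1% of all genes were. The target past the adjusted limit was Orc1, the largest subunit of the origin recognition complex. It read 6186, 4613 and 4968 against 3000, 2335 and 1958, with no overlap between labels (log2 difference 1.12, SE 0.23, limma adjusted p = 0.0498). The target genes' labels did not overlap for 9 genes higher (17.8% of all genes) and 8 lower (18.4%). The median within experiments 1, 2 and 3 was 0.11, 0.02 and 0.19. Cdc6, which loads the replicative helicase, was chosen after its values were seen because its probes differed, with 1.06 (SE 0.16, limma adjusted p = 0.0307) at one and 0.56 (SE 0.47, limma adjusted p = 0.484) at the one used for the list.

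Of the 9 genes of the E2f6 Polycomb complex, 1 was higher past the adjusted limit and 0 were lower. At an unadjusted limma p under 0.05 there were 1 higher and 1 lower, where 13% and 15.1% of all genes were. The median was -0.13, with 3 differences above 0 and 6 below. Labels did not overlap for 1 gene higher (17.8% of all genes) and 2 lower (18.4%). The higher gene was L3mbtl2, a chromatin-compacting subunit, at 874, 1169 and 970 against 561, 477 and 487 (log2 difference 0.98, SE 0.19, limma adjusted p = 0.0430). The MuvB and DREAM list held 7 genes. With MuvB, Rbl1 and Rbl2 silence cell cycle genes in quiescence, but the listed Foxm1 and Mybl2 are not part of that silencing complex. The list gave no call (1 higher and 0 lower at an unadjusted limma p under 0.05). All 7 differences were above 0, as were 7642 of the 15235 genes, and the median was 0.27. The 2 with the lowest p were Lin52 (1.00, SE 0.32, limma adjusted p = 0.121, or 0.0411 with experiment as a block and 0.0135 to 0.340 over all alternatives) and Foxm1 (0.58, SE 0.32, limma adjusted p = 0.318). The 14 G1 kinase and inhibitor genes tested also gave no call. At an unadjusted limma p under 0.05, 4 were higher and 0 lower, where 13% and 15.1% of all genes were. Their median was 0.09, with 8 differences above 0 and 6 below. Their lowest p values were for Cdkn1a (p21), an inhibitor of the kinases that act on the pocket proteins (1.17, SE 0.30, limma adjusted p = 0.0761, or 0.0379 with experiment as a block and 0.00828 to 0.249 over all alternatives), and for Cdk2 (0.67, SE 0.19, limma adjusted p = 0.102). Orc1 and L3mbtl2 were each lost on leaving out any 1 of the 6 arrays, with adjusted p of 0.0631 to 0.187 for Orc1 and 0.0655 to 0.180 for L3mbtl2. Tfdp2, Orc1 and L3mbtl2 all missed the limit without the filter on dim probes and with the methods' t-test. With variances moderated over all probes, Orc1 (adjusted p = 0.0594) and Tfdp2 (adjusted p = 0.0612) missed it, and under 75th percentile scaling Orc1 (0.0650) and L3mbtl2 (0.0517) did.

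**Figure D4:**
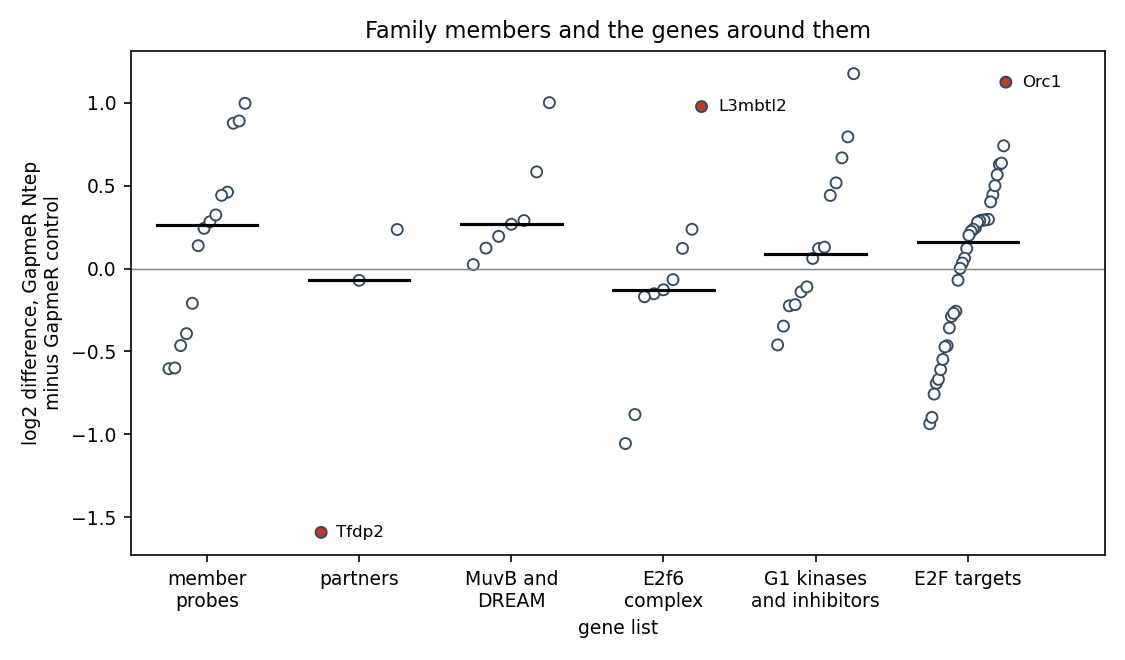
Log2 difference of each tested probe of the family and of each tested gene of the lists around it, with bars for medians and filled points for an adjusted p under 0.05. Filled are Tfdp2 at -1.59, L3mbtl2 at 0.98 and Orc1 at 1.12, and no family member.

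Markers of cell types were read beside these results. The 10 tested fibroblast markers had a median log2 difference of -0.59, with 9 below 0 and none past the adjusted limit (2 lower at an unadjusted limma p under 0.05), and their summed signal was 555835 to 737634 with GapmeR Ntep against 808606 to 892191 with control. Of 7 macrophage markers 5 were tested, with Ptprc and Adgre1 below the signal limit, and their median was 1.21. The macrophage summed signal was 42434 to 75237 against 19897 to 27379. Cd68 was higher past the adjusted limit (log2 difference 1.21, limma adjusted p = 0.0287), where 2.34% of all genes were. Cd68 was not followed over the alternatives of the closing section. At an unadjusted limma p under 0.05, 4 of the 5 were higher and 0 lower, where 13% and 15.1% of all genes were. Csf1r had the largest difference (3.19, SE 1.12, limma adjusted p = 0.150), and Lyz2 went the other way (-0.18). The 4 epithelial and 2 tested endothelial markers had medians of 0.25 and 0.39. The part of these markers in the differences above was not tested.

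By root mean square difference of centred log2 values over the 6 arrays, the probes nearest to E2f8 were those of Snhg1 (0.056), Abhd5 (0.066) and Zfp280b (0.072), with log2 differences of 0.90, 0.99 and 0.99.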

How the data were processed

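RNA of 6 cultures was hybridised to 6 arrays whose scanner headers carry 1 slide barcode. The array format named in the paper has fewer places per slide, so the number of slides stayed unsettled. The authors used Feature Extraction 10.7.3.1 to obtain background-subtracted intensity values per spot, deposited without normalization between arrays, beside a quantile normalized intensity table. Spots of a probe were summarised by their median, a choice made over the mean after outlying spots had been seen. After quantile normalization and a floor of 20, probes whose mean reached 50 in either label were tested on log2 values, unpaired and two-sided, by limma (version 3.58.1, under R version 4.3.3 with the data.table package, version 1.17.8). The steps were tested on simulated data. Variances were moderated over the tested probes. Moderation over all probes and with an intensity trend was looked at before this was settled, and the closing section gives both.

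Labels carry no replicate numbers. The study's supplementary file numbers the arrays and pairs them by culture day. Residuals of same-numbered arrays correlated at 0.468, 0.301 and 0.255, those of others at -0.328 to 0.127. On the arrays, 43.7% to 53.3% of probes were well above background, with 75th percentiles of 945 to 1347, and the number of arrays limits the precision.

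Members and lists were chosen with earlier results of these data known. Named are all member probes, Ntep, Tfdp1, Tfdp2 and Rbl2, up to 5 genes per direction past the adjusted limit in each other list or, with none, the 2 with the lowest p, and the 3 probes nearest to the member with the lowest adjusted p. A list gene is represented by its brightest probe. The files give probe positions in mm9. Promoters come from RefSeq (GRCm38.p6), which held windows for 7 of the 10 members. A first search with 4 E2F words of 8 letters was replaced by the 3 words of 7 letters after the matching members had been seen. It matched the same 4 members and 2.26% of all windows. The CHR word and the partner and target promoters were also added after values had been seen. For the floor of 50 and normexp, the tested probes were kept as in the main setting after a first run in which that filter removed nothing.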

Additional observations from a re-analysis of the deposited data

How the results depend on the processing

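Over 18 alternatives, all member probes kept their direction except E2f5 (-0.027 without GapmeR Ntep replicate 3, in a leave-one-out range of -0.027 to 0.30). E2f8 ranged from 0.84 to 1.19 with limma adjusted p from 0.00627 to 0.239, and passed under normexp (1.00, adjusted p 0.0378), the replicate block (1.00, 0.0355), array weights (1.10, 0.00627) and an intensity trend (1.00, 0.0374), so that whether it passes depends on these settings. The dimmer E2f3 probe passed with the replicate block (0.88, adjusted p 0.0474) and array weights (0.97, 0.0203). Member probes past the adjusted limit thus numbered 1 under normexp, 2 with the block, 2 with array weights and 1 with the trend, among shares of all probes of 8.26%, 13.9%, 33.2% and 8.74%, and were 0 otherwise. Past fold 2 and p 0.01 there was 1 with array weights and 1 with outlier spots left out. E2F targets higher numbered 0 under 75th percentile scaling, without the filter and with the methods' t-test, 6 with array weights and 3 with the trend, while with variances moderated over all probes the count of 1 was not Orc1 (adjusted p 0.0594), and targets lower numbered 2 under normexp, 7 with array weights, 3 with the trend and 1 with variances moderated over all probes. The partner, MuvB, E2f6 complex and kinase lists gave higher counts of 0 under 75th percentile scaling, without the filter and with the t-test, 3 with the block (L3mbtl2, Cdkn1a and Lin52), 7 with weights and 2 with the trend, and lower counts of 2 under normexp, 0 without the filter, 3 with weights, 0 with the t-test, 2 with the trend and 0 with variances moderated over all probes. The median of the targets was 0.25 under 75th percentile scaling, which moved the median of all probes from 0.06 to 0.22 and that of the members to 0.37. Leaving out single arrays gave 0 member probes past the adjusted limit each time, 0 to 1 past fold 2, 0 targets lower each time, 0 to 1 targets higher, 0 to 1 list genes lower and 0 higher, and a target median of 0.10 to 0.22. It turned Ntep to 0.13 (without GapmeR Ntep replicate 2, range -1.06 to 0.13) and Rbl2 to 0.042, 0.022 and 0.037 (without GapmeR Ntep replicate 1 and control replicates 2 and 3, range -0.27 to 0.042). The trend, the moderation over all probes, the mean over spots and the removal of outlier spots were chosen after seeing the data. The replicate block changed no other member call. The cause of these shifts was not tested.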
